A study of Mus musculus with 14 samples.

Results

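The livers of wild-type (WT) mice given the TRPV4 antagonist GSK219 were compared with the livers of WT mice that did not receive it, in a mouse model of pancreatic ductal adenocarcinoma (PDAC). The comparison was chosen by the sample labels alone and took in 5 of the 14 samples of the series, 2 WT livers and 3 GSK219 livers. The title of the third treated liver spells the compound GSRK219, and it was taken as GSK219. The features described are the protein-coding genes of the liver count table, of which 13093 of 22046 had enough reads to be tested. The gene lists also held 13 tested genes of other annotation classes, among them immunoglobulin and T cell receptor constant genes, Clec7a and Ifi30. All animals of both groups carried floxed Piezo1 alleles without a Cre recombinase, a genotype that served as WT, and were 8 to 12 weeks old, of both sexes. All had KPCY cells, a line from a mouse pancreatic tumor with a yellow fluorescent label, placed in the tail of the pancreas, and livers were taken 20 days later. GSK219 is the label's short form of GSK2193874, a small molecule that blocks the TRPV4 channel; it was given by gavage at 10 mg/kg every 24 hours in a cyclodextrin carrier. Whether the WT controls received the carrier is not given in the sources used here, so the drug and the gavage cannot be told apart. The tumor line is a single line, and the channel is blocked in every cell that the drug reaches, not in the liver alone. A further group of 3 livers, from TRPV4-knockout (TRPV4-KO) mice with the same tumor cells, entered the fit and is set beside the GSK219 livers where its values bear on them.

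TRPV4 is a cation channel of the plasma membrane that opens to stretch, osmotic swelling, warmth and lipid messengers and lets calcium into fibroblasts, endothelial cells, macrophages and some epithelia. The liver answers inflammation elsewhere in the body with the acute-phase response: IL-6 acting through STAT3, and IL-1 and TNF acting through NF-kB and C/EBP factors, raise secretion by hepatocytes of serum amyloid A (SAA), haptoglobin, hemopexin and other plasma proteins. Neutrophils and monocytes enter the organ in the same setting, where Kupffer cells, the resident macrophages, and stellate cells, the main makers of liver matrix, already reside. The study asked whether blocking or losing TRPV4 alters this liver response to a pancreatic tumor.

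The 5 libraries held between 15567031 and 16905623 reads assigned to genes, and protein-coding genes took 98.2% to 98.6% of them. Hepatocyte markers were abundant in all 5, with albumin at 44375 and 31636 CPM (read counts scaled to a common library size) in the WT livers, and 3.16% to 4.07% of reads came from mitochondrial genes. Reads of Xist, the RNA of the inactive X chromosome, were present in WT replicate 1 and GSK219 replicate 3 (14224 and 13681 reads) and at 7 or fewer in the other 3 livers, which held Y-linked reads instead, so both groups mixed the sexes. With 2 livers against 3, p-values rest on few samples, and the labels say only that these are biological replicates. In the TRPV4-KO libraries Trpv4 itself had 15, 5 and 23 reads, against 43 and 53 in the WT and 20, 30 and 36 in the GSK219 livers; reads outside the deleted part of the gene, which is not given in the sources used here, would check nothing. Because this is bulk tissue, fewer cells of a type and less RNA per cell cannot be told apart in anything that follows.

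Livers of GSK219-treated mice had lower levels of Saa1 and Saa2 and of many neutrophil and macrophage genes, and modestly higher levels of a minority of the genes for fatty acid oxidation and bile acid handling, but no gene passed the adjusted threshold in the edgeR quasi-likelihood test. Asking for a Benjamini-Hochberg adjusted p under 0.05 together with a difference past 1 on the log2 scale, edgeR called 0 of 15118 genes lower (0.0%) and 0 higher (0.0%). The smallest adjusted p was 0.0633, for Fabp5. At an unadjusted p under 0.05, 854 protein-coding genes were lower (6.52%) and 314 were higher (2.4%) in the GSK219 livers. All 3 GSK219 livers lay below both WT livers for 2173 protein-coding genes (16.6%) and above both for 1566 (12.0%). DESeq2, fitted to the 5 livers alone as an alternative, called 136 of 14517 genes lower (0.937%) and 11 higher (0.0758%) by the same thresholds. The median log2 fold change over all tested genes was 0.00149. Without WT replicate 1 the nominal counts were 238 lower and 181 higher protein-coding genes, and without GSK219 replicate 1 they were 449 and 212, whereas without WT replicate 2, GSK219 replicate 2 or GSK219 replicate 3 they were 851, 664 and 933 lower and 330, 317 and 316 higher. In the rest of the text the error of a log2 fold change is its standard error, "p under 0.05" in a count refers to unadjusted edgeR p-values, "lower" and "higher" describe values in the GSK219 livers relative to WT, and such a count is to be read against the 6.52% and 2.4% above. A count of genes without overlap between the groups is to be read against the 16.6% below and the 12.0% above both WT livers. Counts of list members with 1 liver left out are given in the order WT replicate 1, WT replicate 2, GSK219 replicate 1, GSK219 replicate 2 and GSK219 replicate 3. After the median log2 fold change of a list, the brackets give the lowest and highest median with 1 liver left out.

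**Figure D1:**
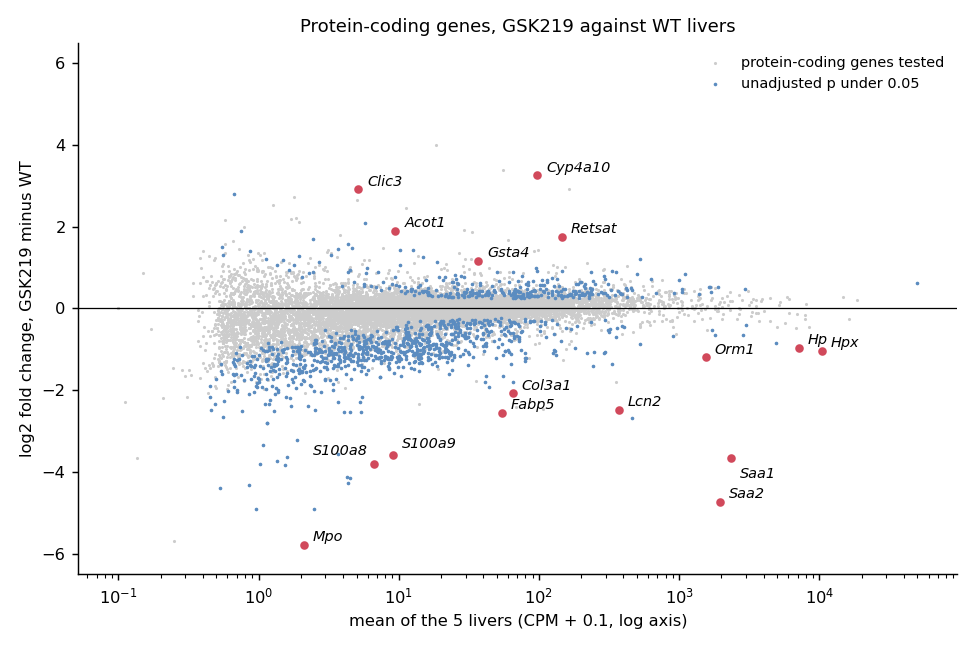
Log2 fold change (GSK219 minus WT livers, vertical axis) against mean level over the 5 livers (CPM + 0.1, log axis) for the 13093 protein-coding genes tested, with genes at an unadjusted p under 0.05 in blue and named genes in red. Saa1, Saa2 and Mpo lie at the bottom of the cloud and Cyp4a10, Clic3 and Retsat near the top, and 854 blue points lie below the zero line against 314 above it.

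The genes with the smallest p on the lower side were Fabp5, Tmem268, S100a8, Saa2 and Saa1. Fabp5, a fatty acid binding protein found in macrophages and epithelia, had 108 and 109 CPM in WT and 14.8, 18.5 and 21.9 CPM in GSK219 livers (log2 fold change -2.56 ± 0.24, edgeR adjusted p = 0.0633). The GSK219 livers were all below the WT livers, by 5.88-fold on the means. Tmem268, a transmembrane protein, had 35.6 and 35.4 CPM in WT and 20.9, 19.7 and 20.02 CPM in GSK219 livers (log2 fold change -0.81 ± 0.102, edgeR adjusted p = 0.172), a small difference with little spread in either group. On the higher side the smallest p belonged to Gsta4, Gclc, Retsat, Cyp2c29 and Hsd11b1, all of them genes of hepatocyte metabolism. Retsat, the retinol saturase, had 44.8 and 75.01 CPM in WT and 222, 196 and 189 CPM in GSK219 livers (log2 fold change 1.76 ± 0.32, edgeR adjusted p = 0.341), with the GSK219 livers 3.38-fold above the WT livers on the means. Hsd11b1, which regenerates active glucocorticoid from its inert form, had 233 and 240.1 CPM in WT and 473, 352 and 481 CPM in GSK219 livers (log2 fold change 0.88 ± 0.17, edgeR adjusted p = 0.391).

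The SAA genes lie side by side on chromosome 7, and Saa1 and Saa2 are acute-phase genes of the hepatocyte. The stretches upstream of them are shown because Saa1 and Saa2, both far lower in the GSK219 livers, are nearly alike there while Saa3 and Saa4 are not. Each sequence runs 5′ to 3′ on the gene's own strand, from 250 to 51 bases before the RefSeq start in GRCm38.p6, with TTGCNNAA, a letter pattern of C/EBP binding sites, in capitals; both strands were searched.
Saa1 (chr7:46743031-46743230, minus strand): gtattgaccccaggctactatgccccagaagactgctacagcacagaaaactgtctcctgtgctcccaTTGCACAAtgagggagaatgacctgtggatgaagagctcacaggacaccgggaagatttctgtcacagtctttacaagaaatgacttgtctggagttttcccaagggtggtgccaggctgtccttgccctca
Saa2 (chr7:46751583-46751782, plus strand): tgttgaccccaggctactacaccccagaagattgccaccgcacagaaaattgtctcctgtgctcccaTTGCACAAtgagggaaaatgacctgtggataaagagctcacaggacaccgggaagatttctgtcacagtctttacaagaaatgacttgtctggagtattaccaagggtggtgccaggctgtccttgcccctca
Saa3 (chr7:46715727-46715926, minus strand): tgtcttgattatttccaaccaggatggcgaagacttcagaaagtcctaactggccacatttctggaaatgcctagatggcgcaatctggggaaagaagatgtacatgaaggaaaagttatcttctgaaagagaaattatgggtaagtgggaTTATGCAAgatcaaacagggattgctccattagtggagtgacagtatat
Saa4 (chr7:46732654-46732853, minus strand): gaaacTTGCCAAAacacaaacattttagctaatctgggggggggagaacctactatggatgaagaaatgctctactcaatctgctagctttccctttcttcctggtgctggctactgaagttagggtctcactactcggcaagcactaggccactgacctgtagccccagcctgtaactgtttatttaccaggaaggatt
The Saa1 and Saa2 stretches matched at 185 of 199 bases (93.0%) with a shift of 1 base, and the other pairs of SAA genes at 27.7% to 34.6%. All 4 held TTGCNNAA, as did the same 200-base window in 2664 of 32851 RefSeq promoters (8.11%), and none held TTCNNNGAA, the letter pattern of STAT sites, found in 1893 (5.76%). A match is only a description of the letters in this window, and how the deposited counts split reads between Saa1 and Saa2 is uncertain, since the transcripts are also near copies.

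Saa1 had 5981 and 4499 CPM in WT and 300.2, 740.2 and 194 CPM in GSK219 livers, with every GSK219 liver far below both WT livers (log2 fold change -3.67 ± 0.51, edgeR adjusted p = 0.22). Saa2 had 5277 and 3962 CPM in WT and 119, 322 and 82.8 CPM in GSK219 livers (log2 fold change -4.72 ± 0.57, edgeR adjusted p = 0.172), the larger of the differences. In both genes GSK219 replicate 2 was the highest of the treated livers, and without it edgeR called both genes, the only genes then called. Saa4, the constitutive form carried on high-density lipoprotein, had 759.7 and 684 CPM in WT and 403, 404 and 383 CPM in GSK219 livers (log2 fold change -0.86 ± 0.22, edgeR adjusted p = 0.454), a narrower gap with almost no spread among the treated livers. Saa3, which in mice is made mainly by macrophages and fat, had 15.6 and 6.99 CPM in WT and 6.86, 5.62 and 12.1 CPM in GSK219 livers (log2 fold change -0.46 ± 0.403, edgeR adjusted p = 0.859), and its groups overlapped. Summed over the SAA genes, the level was 12033 and 9152 CPM in the WT livers and 829.6, 1472 and 672 CPM in the GSK219 livers. Saa1, Saa2 and Saa4 stayed at p under 0.05 whichever liver was left out.

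**Figure D2:**
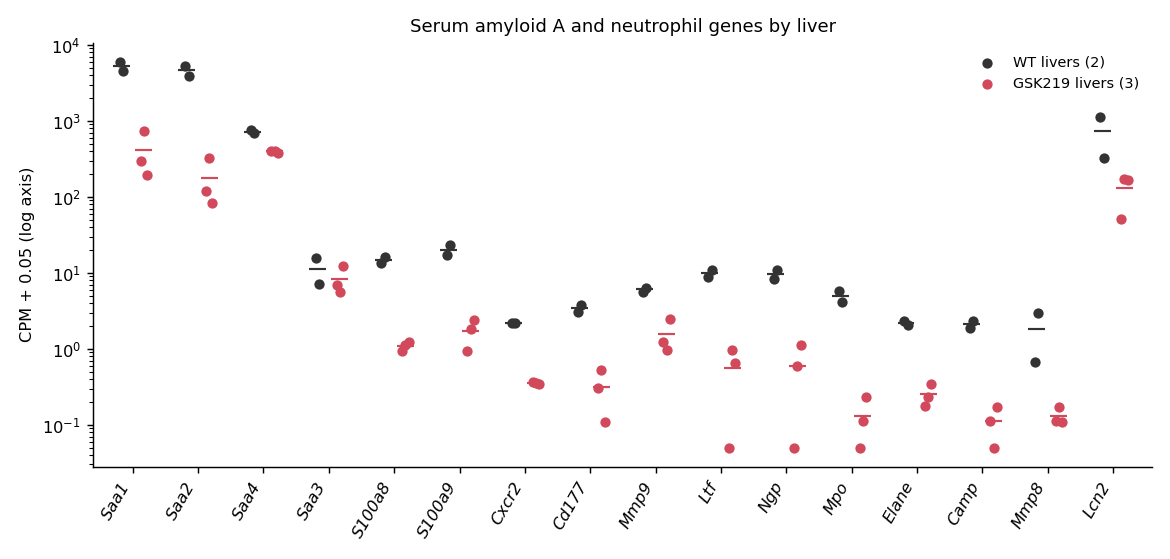
Level of each SAA and neutrophil gene in every liver (CPM + 0.05, log axis), with WT livers in black, GSK219 livers in red and short lines at the group means. Every gene shown except Saa3 has all 3 GSK219 livers below both WT livers, and the lowest red points of Ltf, Ngp, Mpo and Camp are livers with no reads.

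Some acute-phase genes beyond SAA were lower as well, by smaller factors. Of 28 such genes tested (29 listed), 12 were lower and 0 higher at p under 0.05, 17 had no overlap between the groups, and the median log2 fold change was -0.65 [-0.86 to -0.46]. With 1 liver left out the count at p under 0.05 was 6, 15, 7, 15 and 9. Hemopexin (Hpx), the plasma protein that binds free heme, had 16603 and 13407 CPM in WT and 7156, 8047 and 6746 CPM in GSK219 livers (log2 fold change -1.04 ± 0.16, edgeR adjusted p = 0.22). Its upstream stretch is shown for comparison with the SAA genes, in the same window and with the same letters in capitals.
Hpx (chr7:105600167-105600366, minus strand): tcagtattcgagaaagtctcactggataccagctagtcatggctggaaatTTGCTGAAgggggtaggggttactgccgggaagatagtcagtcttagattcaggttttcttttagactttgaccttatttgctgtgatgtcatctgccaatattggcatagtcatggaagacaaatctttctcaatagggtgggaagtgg
TTGCNNAA was present in 8 and TTCNNNGAA in 7 of the 25 listed acute-phase genes with a RefSeq promoter sequence. Orm1, an orosomucoid that carries drugs and steroids in plasma, had 2910.1 and 1761 CPM in WT and 965, 1087 and 1008 CPM in GSK219 livers (log2 fold change -1.195 ± 0.21, edgeR adjusted p = 0.341). Haptoglobin (Hp), which binds free hemoglobin, had 12056 and 8180.1 CPM in WT and 6059.7, 4975 and 4518 CPM in GSK219 livers (log2 fold change -0.96 ± 0.200, edgeR adjusted p = 0.391). Steap4, a metalloreductase of the hepatocyte and adipocyte membrane, had 708 and 336 CPM in WT and 163, 218 and 232 CPM in GSK219 livers (log2 fold change -1.35 ± 0.31, edgeR adjusted p = 0.417). Each of these 4 genes was lower in every treated liver. Lcn2, or lipocalin 2, which binds bacterial siderophores and comes from hepatocytes and neutrophils alike, had 1136 and 325 CPM in WT and 50.4, 172 and 168 CPM in GSK219 livers (log2 fold change -2.49 ± 0.98, edgeR adjusted p = 0.588), with WT replicate 1 well above WT replicate 2. The beta chain of fibrinogen, Fgb, had 9107 and 7253 CPM in WT and 5452, 7376 and 4909 CPM in GSK219 livers and overlapped (log2 fold change -0.47 ± 0.22, edgeR adjusted p = 0.636). Ceruloplasmin (Cp), a copper oxidase of plasma, had 2482 and 1342 CPM in WT and 1223, 1404 and 1378 CPM in GSK219 livers and overlapped too (log2 fold change -0.52 ± 0.25, edgeR adjusted p = 0.638). The heme and iron list held Hpx, Hp and Steap4 as well and otherwise stayed near zero: 4 of 26 genes were lower and 0 higher at p under 0.05, with a median of 0.01 [-0.08 to 0.099]. The fourth gene was Hmox1, the inducible heme oxygenase, with 49.4 and 52.5 CPM in WT and 23.4, 40.5 and 34.4 CPM in GSK219 livers (log2 fold change -0.64 ± 0.24, edgeR adjusted p = 0.569).

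Genes of the IL-6 pathway that feeds this response gave 4 of 19 lower and 0 higher at p under 0.05, with a median log2 fold change of -0.23 [-0.39 to -0.16] and 2, 2, 5, 3 and 3 lower with 1 liver left out. Socs3, the feedback inhibitor that STAT3 induces, had 114 and 86.1 CPM in WT and 28.5, 50.6 and 37.4 CPM in GSK219 livers (log2 fold change -1.37 ± 0.35, edgeR adjusted p = 0.454). Osmr, the receptor subunit for oncostatin M, had 24.3 and 17.1 CPM in WT and 4.78, 12.7 and 9.38 CPM in GSK219 livers (log2 fold change -1.21 ± 0.396, edgeR adjusted p = 0.539). Both genes had no overlap between the groups. Bcl3, an atypical inhibitor-of-NF-kB protein, had 75.3 and 69.6 CPM in WT and 52.4, 40.3 and 46.9 CPM in GSK219 livers (log2 fold change -0.64 ± 0.22, edgeR adjusted p = 0.539). The kinase gene Pim1 had 29.2 and 43.1 CPM in WT and 29.5, 17.03 and 22.5 CPM in GSK219 livers with overlap (log2 fold change -0.65 ± 0.24, edgeR adjusted p = 0.563). Lifr, the receptor for leukemia inhibitory factor, had 245 and 275 CPM in WT and 422, 275 and 455 CPM in GSK219 livers (log2 fold change 0.56 ± 0.25, edgeR adjusted p = 0.613). Il6 itself had 15 and 3 reads in WT and 3, 10 and 8 reads in GSK219 livers and was too low to be tested.

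Neutrophil genes differed by large factors at low levels for whole liver. Of 13 mature neutrophil genes tested (21 listed), 10 were lower and 0 higher at p under 0.05, and 11 did not overlap. Of the 13, 5 passed the filter on low counts only through the WT livers, so they had to be lower, and these counts are given as a description. Among the other 8, 5 were lower at p under 0.05. The 8 members not tested had at most 16 reads in any of the 5 livers. Leaving out a liver gave 10, 9, 9, 9 and 9 lower. S100a8, one chain of calprotectin, the most abundant cytosolic protein of neutrophils, had 220 and 274 reads in WT and 14, 18 and 20 reads in GSK219 livers (log2 fold change -3.799 ± 0.48, edgeR adjusted p = 0.172). Its partner S100a9 had 273 and 395 reads in WT and 14, 29 and 39 reads in GSK219 livers (log2 fold change -3.58 ± 0.63, edgeR adjusted p = 0.341). In both genes the highest treated liver was below the lowest WT liver by several fold. Cxcr2, the receptor that draws neutrophils toward CXC chemokines, had 35 and 37 reads in WT and 5, 5 and 5 reads in GSK219 livers (ratio of summed, depth-scaled reads 7.08, 95% interval 4.02 to 13.3; edgeR adjusted p = 0.22). Cd177, a neutrophil surface protein that binds PECAM1, had 48 and 64 reads in WT and 4, 8 and 1 reads in GSK219 livers (ratio of summed, depth-scaled reads 12.7, 95% interval 7.14 to 24.6; edgeR adjusted p = 0.276). The intervals cover counting error only. Mmp9, the gelatinase of the tertiary granule, had 91 and 109 reads in WT and 19, 15 and 40 reads in GSK219 livers (log2 fold change -1.99 ± 0.54, edgeR adjusted p = 0.465).

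The granule genes, which neutrophil precursors transcribe most, gave 11 of 16 lower and 0 higher at p under 0.05, and 7, 10, 9, 10 and 10 with 1 liver left out. Here too 5 members, Mpo, Elane and Camp among them, passed the filter only through the WT livers, and of the other 11, 6 were lower. Hp, counted above among the acute-phase genes, is one of the granule genes. Mpo, the peroxidase of the azurophil granule, had 92 and 70 reads in WT and 0, 1 and 3 reads in GSK219 livers (ratio of summed, depth-scaled reads 59.8, 95% interval 22.9 to 222; edgeR adjusted p = 0.276). Elane, the elastase of the same granule, had 37 and 34 reads in WT and 2, 3 and 5 reads in GSK219 livers (ratio of summed, depth-scaled reads 10.5, 95% interval 5.38 to 22.8; edgeR adjusted p = 0.391). Camp, which encodes the cathelicidin peptide, had 30 and 39 reads in WT and 1, 0 and 2 reads in GSK219 livers (ratio of summed, depth-scaled reads 33.9, 95% interval 11.1 to 169; edgeR adjusted p = 0.391). None of these 3 genes reached more than a handful of reads in a treated liver, so the size of their difference is loosely fixed. Ltf, the lactoferrin of the specific granule, had 143 and 188 reads in WT and 0, 15 and 10 reads in GSK219 livers, and Ngp, the neutrophilic granule protein, had 134 and 187 reads in WT and 0, 9 and 18 reads in GSK219 livers, with log2 fold changes of -4.27 ± 1.01 and -4.12 ± 1.03. Mmp8, the neutrophil collagenase, which passed the filter only through the WT livers, had 10 and 50 reads in WT and 1, 2 and 1 reads in GSK219 livers (ratio of summed, depth-scaled reads 22.1, 95% interval 8.21 to 83.8; edgeR adjusted p = 0.391). Chil1, a chitinase-like protein that neutrophils and macrophages secrete, had 221 and 41 reads in WT and 4, 23 and 6 reads in GSK219 livers (log2 fold change -3.57 ± 0.95, edgeR adjusted p = 0.465), with WT replicate 1 accounting for most of the WT reads.

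Many macrophage genes were lower at p under 0.05. Among Kupffer cell markers, 11 of 17 were lower and 0 higher at p under 0.05, 13 did not overlap between the groups, and the median log2 fold change was -1.04 [-1.29 to -0.76]. Leaving out a liver gave 0, 4, 6, 6 and 12, so without WT replicate 1 no member kept p under 0.05, while the median was then -0.904. Clec4f, a lectin found only on Kupffer cells in the mouse liver, had 426 and 429.6 CPM in WT and 119.9, 205 and 282 CPM in GSK219 livers (log2 fold change -1.08 ± 0.38, edgeR adjusted p = 0.556). Timd4, the phosphatidylserine receptor of embryonically seeded Kupffer cells, had 34.95 and 26.4 CPM in WT and 7.55, 15.2 and 17.7 CPM in GSK219 livers (log2 fold change -1.18 ± 0.39, edgeR adjusted p = 0.539). Folr2, a folate receptor of tissue macrophages, had 14.5 and 12.8 CPM in WT and 2.71, 5.44 and 6.81 CPM in GSK219 livers (log2 fold change -1.45 ± 0.47, edgeR adjusted p = 0.539). The summed Kupffer cell markers were 2615 and 2717 CPM in the WT and 1240.2, 1690.3 and 1772 CPM in the GSK219 livers, with GSK219 replicate 1 the lowest. Of the C1q chains, which macrophages supply to the complement system, C1qa had 207 and 163 CPM in WT and 51.4, 92.8 and 117 CPM in GSK219 livers (log2 fold change -1.09 ± 0.35, edgeR adjusted p = 0.539), C1qb differed by -1.14 ± 0.38 and C1qc by -1.04 ± 0.38.

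Markers of monocytes and recruited macrophages gave 12 of 21 lower and 0 higher at p under 0.05, a median of -1.14 [-1.37 to -0.82], and 7, 10, 8, 9 and 12 with 1 liver left out. Of the 12, Chil3, F13a1 and Vcan passed the filter on low counts only through the WT livers. Trem2, a lipid receptor of macrophages in injured tissue, had 4.89 and 3.85 CPM in WT and 0.755, 1.09 and 1.38 CPM in GSK219 livers (log2 fold change -2.02 ± 0.32, edgeR adjusted p = 0.257). Vcan, the proteoglycan versican that monocytes and fibroblasts make, had 1.67 and 2.27 CPM in WT and 0.252, 0.544 and 0.359 CPM in GSK219 livers (log2 fold change -2.33 ± 0.45, edgeR adjusted p = 0.391). F13a1, the coagulation factor XIII A chain of monocytes and platelets, had 2.598 and 2.04 CPM in WT and 0.755, 0.483 and 0.478 CPM in GSK219 livers (log2 fold change -2.01 ± 0.37, edgeR adjusted p = 0.341). Cx3cr1, the fractalkine receptor of patrolling monocytes, had 3.22 and 3.73 CPM in WT and 0.818, 1.51 and 0.717 CPM in GSK219 livers (log2 fold change -1.77 ± 0.44, edgeR adjusted p = 0.429). Each of the 4 was lower in all treated livers, by more than 3-fold on the means. Chil3, a chitinase-like protein of inflammatory macrophages, had 79 and 48 reads in WT and 3, 9 and 8 reads in GSK219 livers (log2 fold change -3.22 ± 0.87, edgeR adjusted p = 0.465). Cd68, a lysosomal glycoprotein of all macrophages, had 35.01 and 25 CPM in WT and 9.82, 16.7 and 21.8 CPM in GSK219 livers (log2 fold change -0.897 ± 0.36, edgeR adjusted p = 0.581). The summed level of the list overlapped, at 4805 and 4009 CPM in the WT and 3213, 4208 and 3976 CPM in the GSK219 livers.

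**Figure D3:**
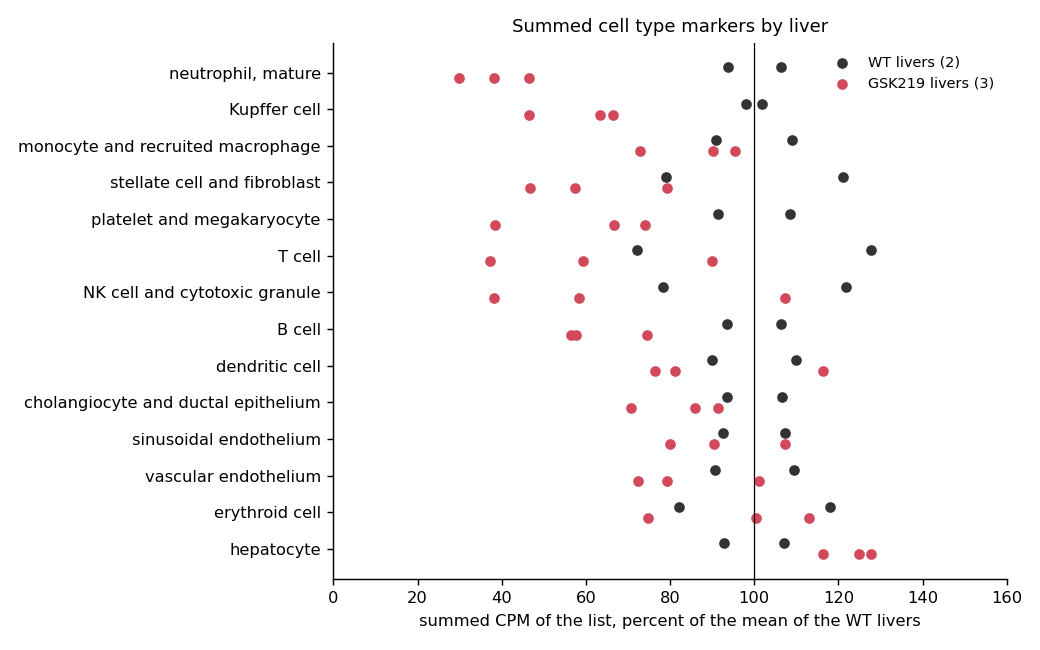
Summed CPM of each cell type marker list in every liver, as a percent of the mean of the 2 WT livers (vertical line at 100), with WT livers in black and GSK219 livers in red. The red points lie below both black points for mature neutrophils, Kupffer cells, platelets, B cells and cholangiocytes, mix with them for monocytes, stellate cells, T cells, natural killer cells, dendritic cells, endothelia and erythroid cells, and lie above them for hepatocytes.

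Many receptors by which myeloid cells sense microbes and move were also lower. Of the pattern-recognition, lectin and Fc receptors, 19 of 28 were lower and 0 higher at p under 0.05, 23 did not overlap, and the median was -1.09 [-1.35 to -0.81] (5, 19, 12, 13 and 20 with 1 liver left out). Tlr2, a receptor for bacterial lipoproteins, had 16.9 and 9.67 CPM in WT and 3.46, 6.22 and 5.200 CPM in GSK219 livers (log2 fold change -1.42 ± 0.34, edgeR adjusted p = 0.42). Tlr1, with which it pairs, had 6.99 and 4.31 CPM in WT and 1.26, 2.36 and 2.99 CPM in GSK219 livers (log2 fold change -1.35 ± 0.38, edgeR adjusted p = 0.478). The fungal glucan receptor Clec7a, or dectin-1, had 26.97 and 19 CPM in WT and 4.15, 11.8 and 9.38 CPM in GSK219 livers (log2 fold change -1.44 ± 0.38, edgeR adjusted p = 0.465). Clec4n, or dectin-2, a receptor for fungal mannans, had 21.7 and 14.9 CPM in WT and 4.34, 8.58 and 8.97 CPM in GSK219 livers (log2 fold change -1.33 ± 0.37, edgeR adjusted p = 0.492). For all 4 genes every treated liver was below both WT livers. Of chemokine and chemoattractant receptors, 11 of 24 were lower and 0 higher, with a median of -1.11 [-1.24 to -0.602] (7, 12, 7, 10 and 10 with 1 liver left out), Ccr1 and Cxcr2 having passed the filter only through the WT livers. Ccr1, a receptor for CCL chemokines on neutrophils and monocytes, had 82 and 26 reads in WT and 2, 4 and 5 reads in GSK219 livers (ratio of summed, depth-scaled reads 14.5, 95% interval 7.78 to 29.9; edgeR adjusted p = 0.276). Ackr3, an atypical receptor that scavenges CXCL12, had 4.45 and 1.81 CPM in WT and 0.315, 0.664 and 0.777 CPM in GSK219 livers (log2 fold change -2.397 ± 0.62, edgeR adjusted p = 0.454).

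Part of the machinery of phagocytes was lower too. Genes of the actin cytoskeleton and podosomes gave 19 of 35 lower and 0 higher at p under 0.05, with 33 of 35 lower in every treated liver, a median of -0.76 [-0.997 to -0.54], and 3, 19, 10, 13 and 18 with 1 liver left out. Anxa1, which resolves inflammation through formyl peptide receptors, had 8.103 and 7.23 CPM in WT and 2.39, 3.38 and 3.47 CPM in GSK219 livers (log2 fold change -1.31 ± 0.29, edgeR adjusted p = 0.399). Arpc1b, the leukocyte subunit of the actin-branching Arp complex, had 104 and 82.6 CPM in WT and 49.1, 56.2 and 67.01 CPM in GSK219 livers (log2 fold change -0.703 ± 0.18, edgeR adjusted p = 0.45). Fermt3, the kindlin of blood cells, differed by -1.15 ± 0.35, Fgd2, a Cdc42 exchange factor of macrophages, by -1.15 ± 0.34, and Wipf1, a partner of the Wiskott-Aldrich protein, by -1.11 ± 0.32. Phagocyte oxidase and lysosomal protease genes gave 11 of 24 lower and 0 higher, a median of -0.66 [-0.79 to -0.52], and 1, 9, 5, 11 and 12 with 1 liver left out. Ncf1 and Ncf4, cytosolic subunits of the phagocyte oxidase, had 21.3 and 17.4 CPM in WT and 6.67, 9.001 and 11.3 CPM in GSK219 livers and 9.09 and 6.35 CPM in WT and 1.89, 3.202 and 4.48 CPM in GSK219 livers, with log2 fold changes of -1.11 ± 0.32 and -1.27 ± 0.398. Laptm5, a lysosomal membrane protein of blood cells, differed by -1.12 ± 0.36, whereas Grn, or progranulin, and Ctsd, or cathepsin D, which most liver cells express, differed by only -0.52 ± 0.16 and -0.34 ± 0.12.

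Some inflammatory signaling and adhesion genes were lower at p under 0.05. Of the NF-kB, IL-1 and TNF response genes, 9 of 27 were lower and 0 higher at p under 0.05, with 18 not overlapping, a median of -0.69 [-0.97 to -0.43], and 4, 9, 5, 10 and 8 with 1 liver left out. Nfkbiz, which cooperates with NF-kB at acute-phase promoters, had 43.2 and 31.1 CPM in WT and 17.7, 15.7 and 23.2 CPM in GSK219 livers (log2 fold change -0.98 ± 0.23, edgeR adjusted p = 0.418). Irak3, a brake on Toll-like receptor signaling in macrophages, had 7.42 and 4.78 CPM in WT and 1.64, 2.900 and 2.99 CPM in GSK219 livers (log2 fold change -1.28 ± 0.38, edgeR adjusted p = 0.532). The alarmin Il33, held in the nuclei of stellate and endothelial cells, had 12.2 and 5.59 CPM in WT and 2.39, 3.56 and 4.005 CPM in GSK219 livers (log2 fold change -1.42 ± 0.46, edgeR adjusted p = 0.539). In the adhesion list, which shares Cd177 with the neutrophil genes, 10 of 20 were lower and 0 higher, with a median of -1.002 [-1.37 to -0.53] and 4, 11, 7, 7 and 12 with 1 liver left out. Apart from Cd177, which passed the filter only through the WT livers, 9 of 19 were lower. Vcam1, the endothelial and stellate cell ligand of leukocyte integrins, had 59.3 and 38.5 CPM in WT and 13.5, 22.7 and 20.1 CPM in GSK219 livers (log2 fold change -1.38 ± 0.32, edgeR adjusted p = 0.417). Icam1, the ligand of the neutrophil integrins, had 37.7 and 30.2 CPM in WT and 19.6, 22.2 and 22.5 CPM in GSK219 livers (log2 fold change -0.66 ± 0.16, edgeR adjusted p = 0.429). Selp, or P-selectin, of platelets and activated endothelium, had 12.2 and 4.72 CPM in WT and 2.52, 3.93 and 4.18 CPM in GSK219 livers (log2 fold change -1.26 ± 0.401, edgeR adjusted p = 0.539). All 6 genes had no overlap between the groups.

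Chemokine ligands gave 4 of 19 lower and 0 higher, with a median of -0.44 [-0.88 to 0.01]. Without 1 liver the count was 2, 7, 4, 6 and 5, and the median passed zero without WT replicate 1. Cxcl1, a CXCR2 ligand that hepatocytes release in the acute phase, had 109.7 and 77.9 CPM in WT and 34.04, 22.6 and 32.2 CPM in GSK219 livers (log2 fold change -1.66 ± 0.31, edgeR adjusted p = 0.352). Ccl6, a chemokine of mouse myeloid cells, had 102 and 55.3 CPM in WT and 10.9, 24.6 and 27.3 CPM in GSK219 livers (log2 fold change -1.91 ± 0.45, edgeR adjusted p = 0.426). Cx3cl1, or fractalkine, the ligand of CX3CR1, had 3.34 and 2.68 CPM in WT and 0.503, 1.69 and 0.956 CPM in GSK219 livers (log2 fold change -1.51 ± 0.47, edgeR adjusted p = 0.539). Ccl24, an eosinophil chemokine that Kupffer cells produce, had 8.29 and 7.34 CPM in WT and 4.03, 4.17 and 5.798 CPM in GSK219 livers (log2 fold change -0.74 ± 0.24, edgeR adjusted p = 0.539). All 4 were lower in every treated liver. Interferon-stimulated genes gave 7 of 42 lower and 0 higher, with a median of -0.39 [-0.59 to -0.29] and 1, 4, 2, 3 and 10 with 1 liver left out. Mx1, a GTPase that blocks viruses, had 6.495 and 6.41 CPM in WT and 2.39, 2.597 and 2.27 CPM in GSK219 livers (log2 fold change -1.41 ± 0.38, edgeR adjusted p = 0.465). Irf7, the factor that amplifies interferon production, differed by -0.59 ± 0.24. Oas1a, Oas3 and Oasl2, of the oligoadenylate synthetase family, differed by -1.06 ± 0.34, -1.22 ± 0.49 and -0.92 ± 0.36. Among MHC class II genes and their assembly factors, 2 of 11 were lower and 0 higher, 0, 1, 0, 1 and 2 with 1 liver left out. The genes lower were Ifi30, a lysosomal thiol reductase (-0.86 ± 0.299), and Ctss, the cathepsin that trims the invariant chain (-1.09 ± 0.43).

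Complement and coagulation factors are for the most part hepatocyte products. Of 26 complement genes, 5 were lower and 1 higher, with a median of -0.15 [-0.24 to -0.104]. The count lower was 1, 3, 4, 5 and 4 with 1 liver left out and 12 with a term for Xist or Y-linked reads. Cfd passed the filter only through the WT livers, and 4 of the other 25 were lower. The genes lower included the C1q chains above and Cfd, the factor D protease (23 and 73 reads in WT and 9, 1 and 0 reads in GSK219 livers; ratio of summed, depth-scaled reads 14.2, 95% interval 7.38 to 30.5; edgeR adjusted p = 0.571). C8g, a chain of the membrane attack complex, was higher (0.404 ± 0.15). Coagulation and fibrinolysis gave 6 of 30 lower and 1 higher, with a median of -0.19 [-0.28 to 0.01]. Apart from F13a1, which passed the filter only through the WT livers, 5 of 29 were lower. The count of 6 was 2, 8, 4, 8 and 4 with 1 liver left out, and its median lay at the upper end of its range without WT replicate 1. Besides F13a1 they included Cpb2, a carboxypeptidase that slows clot lysis, with 496 and 459.6 CPM in WT and 349, 359 and 345 CPM in GSK219 livers (log2 fold change -0.45 ± 0.11, edgeR adjusted p = 0.418), the plasminogen activator Plau (-0.97 ± 0.31) and its receptor Plaur (-1.53 ± 0.57), which monocytes also express. Klkb1, plasma prekallikrein, was the gene higher (0.34 ± 0.14).

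Lymphocyte markers were few in reads. None of 14 T cell markers and none of 9 natural killer and cytotoxic genes had p under 0.05 in either direction, with medians of -0.54 [-1.06 to -0.19] and -0.44 [-0.94 to -0.05], both nearest zero without WT replicate 1. All 14 T cell markers and 8 of the 9 natural killer genes had a log2 fold change below zero, and the summed T cell level overlapped between the groups. Cd4 had 1.49 and 1.81 CPM in WT and 1.699, 0.664 and 1.14 CPM in GSK219 livers (log2 fold change -0.497 ± 0.42, edgeR adjusted p = 0.85). Trbc1, a T cell receptor constant gene, had 0.9897 and 0.758 CPM in WT and 0.566, 0.604 and 0.717 CPM in GSK219 livers (log2 fold change -0.47 ± 0.397, edgeR adjusted p = 0.849). Klrk1, the NKG2D receptor gene, had 3.46 and 2.97 CPM in WT and 1.07, 1.93 and 2.21 CPM in GSK219 livers (log2 fold change -0.88 ± 0.58, edgeR adjusted p = 0.765). Among 12 B cell genes, 1 was lower (1, 1, 0, 1 and 2 with 1 liver left out), Bank1, a B cell scaffold (log2 fold change -0.95 ± 0.34, edgeR adjusted p = 0.545), and the list median was 0.41 [-0.38 to 2.08]. Its direction turned with the liver left out. The summed B cell level was 28.1 and 31.9 CPM in the WT and 16.9, 17.3 and 22.4 CPM in the GSK219 livers, below both WT livers in every treated liver. Of 11 plasma cell genes, 2 were lower (0, 3, 1, 2 and 2 with 1 liver left out), Prdm1 (-1.42 ± 0.48), which drives plasma cell fate and is also expressed in Kupffer cells, and Ighg1 (-1.63 ± 0.57), an immunoglobulin heavy chain. The plasma cell median was -0.09 [-0.42 to 0.45], highest without WT replicate 1. Of 13 dendritic cell genes, 1 was lower, the lectin Cd209a (log2 fold change -1.95 ± 0.85, edgeR adjusted p = 0.603), and 0, 4, 0, 0 and 0 with 1 liver left out. The dendritic cell median was -0.66 [-0.89 to -0.04], nearest zero without WT replicate 1. Platelet genes gave 2 of 6 lower (0, 1, 0, 2 and 2 with 1 liver left out), Itga2b, the fibrinogen receptor subunit (log2 fold change -0.81 ± 0.33, edgeR adjusted p = 0.581), and Clec1b, a podoplanin receptor shared with Kupffer cells (log2 fold change -0.74 ± 0.27, edgeR adjusted p = 0.561). Erythroid genes gave 0 of 11 and mesothelial genes 0 of 8, in either direction. Without GSK219 replicate 3, 1 erythroid gene was higher. The erythroid median was -0.14 [-0.26 to 0.27] and passed zero without WT replicate 1, and the mesothelial median was -0.32 [-0.65 to -0.04]. Of 16 pancreatic acinar genes only 3 had enough reads, and Cela2a, an elastase, was lower (-0.84 ± 0.36), though not with any 1 liver left out or in either DESeq2 fit. One gene of the mast cell, basophil and eosinophil list was tested, Ccr3, the eotaxin receptor, which differed by -1.06 ± 0.56.

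In the main fit a minority of stromal genes were lower at p under 0.05, among them fibrillar collagens. A term for Xist or Y-linked reads raised the count of stellate cell and fibroblast markers from 6 to 11 of 20. Of 20 stellate cell and fibroblast markers, 6 were lower and 0 higher at p under 0.05, with a median of -0.75 [-0.97 to -0.46] and 3, 8, 5, 5 and 9 with 1 liver left out. Col3a1, type III collagen, had 168 and 71.5 CPM in WT and 22.8, 38.5 and 24.03 CPM in GSK219 livers (log2 fold change -2.07 ± 0.45, edgeR adjusted p = 0.409). Col1a1 and Col1a2, the chains of type I collagen, had 29.4 and 16.6 CPM in WT and 6.17, 12.2 and 5.32 CPM in GSK219 livers and 39.2 and 29.1 CPM in WT and 9.94, 18.4 and 12.7 CPM in GSK219 livers, with log2 fold changes of -1.54 ± 0.49 and -1.32 ± 0.38. Cygb, a globin of stellate cells, had 28.8 and 22.1 CPM in WT and 10.3, 13.5 and 14.2 CPM in GSK219 livers (log2 fold change -1.003 ± 0.21, edgeR adjusted p = 0.391). Lum, or lumican, a keratan sulfate proteoglycan that binds collagen fibrils, had 30.6 and 19 CPM in WT and 7.36, 10.2 and 13.3 CPM in GSK219 livers (log2 fold change -1.27 ± 0.41, edgeR adjusted p = 0.539). In each of these genes the treated livers were all below the WT livers. Over all 28 collagen genes tested of 44 listed, 8 were lower and 0 higher, with a median of -0.54 [-0.74 to -0.35] and 3, 7, 4, 9 and 4 with 1 liver left out, and the summed collagen level overlapped, at 2094 and 1898 CPM in the WT and 1765, 2189 and 1637 CPM in the GSK219 livers. Col6a3, of the beaded-filament collagen, differed by -1.07 ± 0.36 and Col7a1, of anchoring fibrils, by -1.58 ± 0.56.

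Noncollagen matrix genes gave 12 of 45 lower and 0 higher, with a median of -0.56 [-0.76 to -0.36] and 2, 16, 5, 11 and 10 with 1 liver left out. Vcan passed the filter only through the WT livers, and 11 of the other 44 were lower. Fbln1, a fibulin that binds fibronectin and elastin, had 3.59 and 2.39 CPM in WT and 0.692, 0.362 and 0.897 CPM in GSK219 livers (log2 fold change -2.19 ± 0.54, edgeR adjusted p = 0.429). Lama2, a laminin chain of mesenchymal basement membrane, differed by -1.26 ± 0.43, and the thrombospondins Thbs1 and Thbs2, which release TGF-beta or hinder vessel growth, by -1.28 ± 0.55 and -1.08 ± 0.36. Matrix proteases and inhibitors gave 10 of 29 lower and 1 higher, with a median of -0.57 [-0.97 to -0.22] and 4, 12, 7, 9 and 11 with 1 liver left out, Mmp8 and Mmp9 of the neutrophil genes among them. Apart from Mmp8, which passed the filter only through the WT livers, 9 of 28 were lower. Adam10, a sheddase of most cells, had 57.5 and 51.8 CPM in WT and 31.5, 39.7 and 39.2 CPM in GSK219 livers (log2 fold change -0.57 ± 0.13, edgeR adjusted p = 0.409). Timp2, a metalloproteinase inhibitor, had 35.3 and 26.9 CPM in WT and 18.6, 19.4 and 22 CPM in GSK219 livers (log2 fold change -0.64 ± 0.18, edgeR adjusted p = 0.527). Adamts7, a protease that cleaves cartilage oligomeric matrix protein, was the member higher, with 8.78 and 7.29 CPM in WT and 28.6, 17.5 and 11.3 CPM in GSK219 livers (log2 fold change 1.25 ± 0.35, edgeR adjusted p = 0.478). Timp1 had 21 and 8 reads in WT and 3, 4 and 2 reads in GSK219 livers and was too low to be tested (ratio of summed, depth-scaled reads 4.75, 95% interval 2.19 to 11.4). TGF-beta and YAP response genes gave 3 of 22 lower and 0 higher, with a median of -0.15 [-0.24 to -0.12] and 1, 4, 1, 2 and 2 lower with 1 liver left out. Tgfb1, the ligand itself, had 37.2 and 27.9 CPM in WT and 17.1, 21.4 and 21.5 CPM in GSK219 livers (log2 fold change -0.701 ± 0.17, edgeR adjusted p = 0.433). Inhbb, an activin subunit of stellate cells, differed by -0.89 ± 0.33.

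The share of endothelial markers lower at p under 0.05 was near that of all genes, and the share of ductal markers was above it. The vascular list shares Cdh5 with the Kupffer cell list, where it was counted as lower too. Of 14 sinusoidal endothelial genes, 1 was lower, Mrc1, the mannose receptor that Kupffer cells share (log2 fold change -0.55 ± 0.21, edgeR adjusted p = 0.569), and the scavenger receptor Stab1 differed by -0.16 ± 0.18, with a list median of -0.12 [-0.17 to -0.01] and 0, 1, 0, 1 and 1 lower with 1 liver left out. Vascular endothelial genes gave 1 of 15 lower (0, 2, 0, 0 and 2 with 1 liver left out), Cdh5, or VE-cadherin (log2 fold change -0.72 ± 0.27, edgeR adjusted p = 0.566), with a median of -0.18 [-0.38 to 0.04] that passed zero without WT replicate 1. Cholangiocyte and ductal genes, which the tumor cells could also express, gave 4 of 12 lower and 0 higher, with a median of -0.54 [-0.55 to -0.17] and 1, 3, 0, 2 and 3 with 1 liver left out. Cldn7 passed the filter on low counts only through the WT livers, and 3 of the other 11 were lower. Krt7, a keratin of ducts, had 1.49 and 0.991 CPM in WT and 0.503, 0.362 and 0.777 CPM in GSK219 livers (log2 fold change -1.16 ± 0.43, edgeR adjusted p = 0.564). Krt19, a keratin of the same cells, had 1.18 and 1.46 CPM in WT and 1.01, 0.967 and 1.08 CPM in GSK219 livers (log2 fold change -0.37 ± 0.44, edgeR adjusted p = 0.908). Sox9, a ductal transcription factor, had 12.2 and 18.6 CPM in WT and 8.18, 10.7 and 6.63 CPM in GSK219 livers (log2 fold change -0.86 ± 0.33, edgeR adjusted p = 0.571). Cldn7, a tight junction claudin of epithelia, had 1.36 and 0.641 CPM in WT and 0.378, 0.181 and 0.418 CPM in GSK219 livers (log2 fold change -1.59 ± 0.62, edgeR adjusted p = 0.571).

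**Figure D4:**
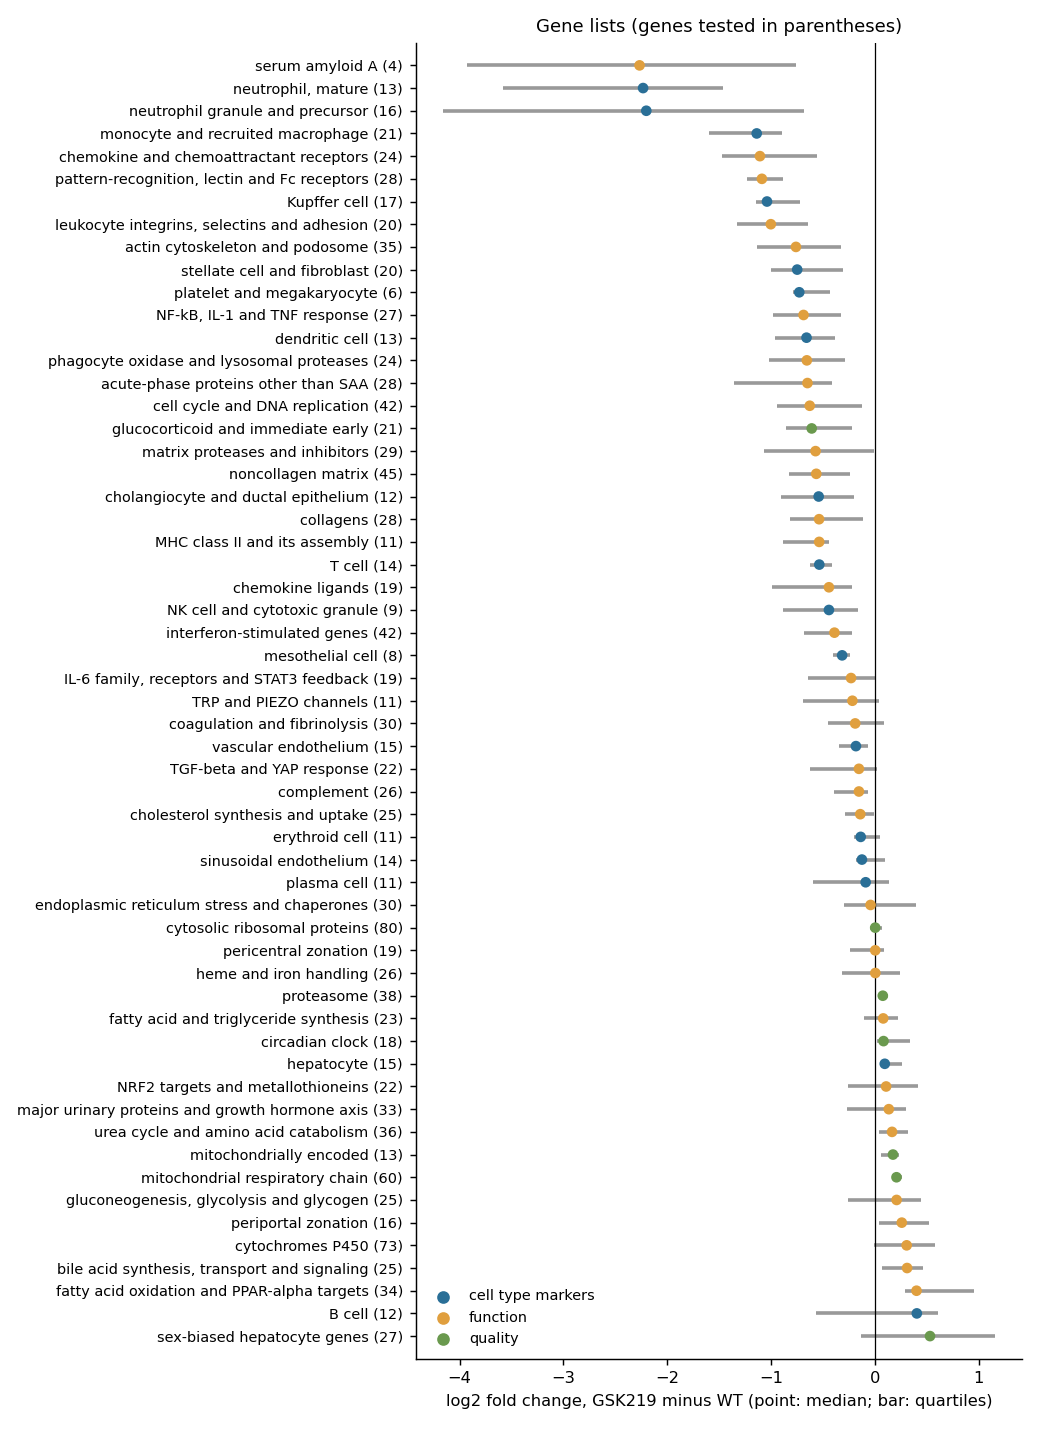
Median log2 fold change (GSK219 minus WT livers, point) and quartiles (bar) of the tested genes of each list with 4 or more tested genes, with the number tested in parentheses and colors for cell type, function and quality lists. SAA lies below -2 and the macrophage and receptor lists near -1, while the neutrophil medians include 5 of 13 and 5 of 16 members that passed the filter on low counts only through the WT livers, and the fatty acid oxidation, bile acid and P450 lists at 0.31 to 0.40.

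Some lists of hepatocyte metabolism had members higher in the GSK219 livers, by small factors for most genes. Of 34 genes of fatty acid oxidation and PPAR-alpha targets, 12 were higher and 1 lower at p under 0.05, 16 lay above both WT livers in all 3 treated livers, and the median log2 fold change was 0.402 [0.34 to 0.64]. With 1 liver left out the count higher was 15, 4, 9, 12 and 10. Cyp4a10, the fatty acid omega-hydroxylase that is a classic PPAR-alpha target, had 28.02 and 3.85 CPM in WT and 80.1, 219 and 156 CPM in GSK219 livers (log2 fold change 3.25 ± 0.91, edgeR adjusted p = 0.539), with the 2 WT livers far apart. Acot1, which frees fatty acids from coenzyme A in the cytosol, had 3.28 and 3.79 CPM in WT and 14.98, 9.79 and 14.9 CPM in GSK219 livers (log2 fold change 1.900 ± 0.57, edgeR adjusted p = 0.539). Acaa1b, a peroxisomal thiolase, had 291 and 295 CPM in WT and 776, 595 and 669 CPM in GSK219 livers (log2 fold change 1.22 ± 0.25, edgeR adjusted p = 0.391). Ehhadh, the peroxisomal bifunctional enzyme, had 166 and 127 CPM in WT and 195, 251 and 248 CPM in GSK219 livers (log2 fold change 0.66 ± 0.17, edgeR adjusted p = 0.454). Acadm, the medium-chain dehydrogenase of mitochondria, had 207 and 181 CPM in WT and 278, 258 and 243 CPM in GSK219 livers (log2 fold change 0.42 ± 0.12, edgeR adjusted p = 0.513). DESeq2 on the 5 livers called 3 members of this list higher, and Acot1 and Acaa1b were among them with adjusted p = 8.14e-07 and 2.9e-09 and all 3 treated livers above both WT livers.

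**Figure D5:**
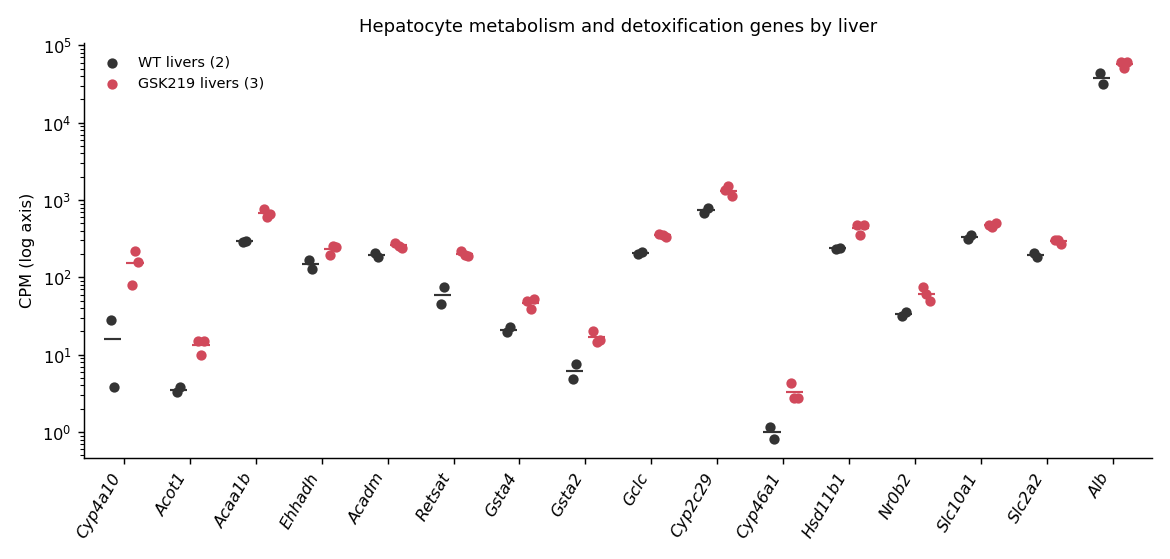
Level of hepatocyte metabolism and detoxification genes in every liver (CPM, log axis), with WT livers in black, GSK219 livers in red and short lines at the group means. All 3 GSK219 livers lie above both WT livers in each gene shown, by the widest margin for Cyp4a10, Acot1, Retsat and Cyp46a1.

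Detoxification genes differed in both directions, and most of them did not have p under 0.05. Among NRF2 targets and metallothioneins, 4 of 22 were higher and 3 lower at p under 0.05, with a median of 0.11 [0.03 to 0.21] and 0, 0, 0, 3 and 2 lower with 1 liver left out. Gsta4, a glutathione transferase for lipid aldehydes, had 19.5 and 22.6 CPM in WT and 48.8, 39.1 and 52.9 CPM in GSK219 livers (log2 fold change 1.16 ± 0.16, edgeR adjusted p = 0.175). Gclc, the catalytic subunit that makes the first step of glutathione synthesis, had 198 and 209.7 CPM in WT and 367, 353 and 333 CPM in GSK219 livers (log2 fold change 0.78 ± 0.12, edgeR adjusted p = 0.257). Gsta2, another alpha-class transferase, had 4.83 and 7.58 CPM in WT and 20.5, 14.6 and 15.4 CPM in GSK219 livers (log2 fold change 1.44 ± 0.29, edgeR adjusted p = 0.391). The genes lower included G6pdx, the entry enzyme of the pentose phosphate pathway (-0.76 ± 0.26), and Hmox1. Cytochromes P450 gave 6 of 73 higher and 2 lower, with a median of 0.31 [0.199 to 0.34] and 8, 8, 4, 6 and 8 higher with 1 liver left out; a term for Xist or Y-linked reads brought the count higher to 22. Cyp2c29, an abundant pericentral P450, had 686 and 799.8 CPM in WT and 1347, 1499 and 1128 CPM in GSK219 livers (log2 fold change 0.83 ± 0.16, edgeR adjusted p = 0.391). Cyp2c23, an epoxygenase of arachidonic acid, had 239 and 235 CPM in WT and 411, 372 and 289.7 CPM in GSK219 livers (log2 fold change 0.59 ± 0.19, edgeR adjusted p = 0.539). Cyp46a1, the cholesterol 24-hydroxylase, had 1.18 and 0.816 CPM in WT and 4.34, 2.72 and 2.75 CPM in GSK219 livers (log2 fold change 1.71 ± 0.36, edgeR adjusted p = 0.391). Cyp1b1, of stromal cells, was lower (log2 fold change -1.61 ± 0.34, edgeR adjusted p = 0.391).

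Bile acid genes gave 5 of 25 higher and 0 lower at p under 0.05, with a median of 0.31 [0.24 to 0.44] and 4, 3, 4, 4 and 5 with 1 liver left out. Slc10a1, the sodium-dependent bile acid uptake carrier NTCP, had 318 and 355 CPM in WT and 476, 445 and 499 CPM in GSK219 livers (log2 fold change 0.49 ± 0.12, edgeR adjusted p = 0.429). Nr0b2, the repressor SHP that the bile acid receptor induces, had 31.8 and 35.1 CPM in WT and 75.1, 60.1 and 49.4 CPM in GSK219 livers (log2 fold change 0.88 ± 0.22, edgeR adjusted p = 0.444). Akr1d1, the steroid reductase of bile acid synthesis, differed by 0.55 ± 0.202, Abcc3, a basolateral exporter, by 0.45 ± 0.18, and Baat, which conjugates bile acids to taurine, by 0.38 ± 0.16. Hepatocyte identity genes gave 2 of 15 higher and 0 lower (2, 3, 1, 2 and 2 higher with 1 liver left out) with a median of 0.096 [0.04 to 0.22]. Apoa2, an apolipoprotein of high-density lipoprotein, had 2367 and 2398 CPM in WT and 3431, 3141 and 3396 CPM in GSK219 livers (log2 fold change 0.48 ± 0.12, edgeR adjusted p = 0.45). Albumin (Alb) had 61085, 51442 and 61769 CPM in the GSK219 livers, above the WT values given earlier (log2 fold change 0.61 ± 0.22, edgeR adjusted p = 0.54). Transthyretin (Ttr), a carrier of thyroid hormone, had 3192 and 3234 CPM in WT and 4118, 3236 and 3726 CPM in GSK219 livers (log2 fold change 0.201 ± 0.15, edgeR adjusted p = 0.799). Nuclear genes of the respiratory chain gave 10 of 60 higher and 0 lower, with 38 above both WT livers and a median of 0.21 [0.12 to 0.31]. The respiratory chain count was 1, 18, 4, 4 and 4 with 1 liver left out, the highest of them without WT replicate 2. Cox7b, a subunit of complex IV, differed by 0.304 ± 0.11.

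Carbohydrate and lipid synthesis genes had members on both sides. Of 25 genes of gluconeogenesis, glycolysis and glycogen, 4 were lower and 2 higher. With 1 liver left out 2, 2, 1, 1 and 4 were lower and 1, 1, 3, 3 and 1 higher. Hk2, a hexokinase that hepatocytes express little and macrophages express, had 15.1 and 15.5 CPM in WT and 3.78, 6.22 and 5.200 CPM in GSK219 livers (log2 fold change -1.59 ± 0.33, edgeR adjusted p = 0.391). Pkm, the pyruvate kinase of non-hepatocyte cells, differed by -0.85 ± 0.35. Slc2a2, the hepatocyte glucose transporter GLUT2, had 204 and 183 CPM in WT and 301, 304 and 271 CPM in GSK219 livers (log2 fold change 0.59 ± 0.13, edgeR adjusted p = 0.399). Pklr, the hepatocyte pyruvate kinase, differed by 0.68 ± 0.29. Among 23 genes of fatty acid and triglyceride synthesis, 2 were higher, Pklr and Mlxipl, or ChREBP, the factor that carbohydrate activates (0.42 ± 0.14), and 1 was lower, Scd1, the stearoyl-CoA desaturase (-0.86 ± 0.35). With 1 liver left out 0, 0, 2, 3 and 1 of them were higher and 2, 1, 0, 0 and 0 lower. Cholesterol synthesis and uptake gave 0 of 25 in either direction. Its count was 1 lower without GSK219 replicate 1 and 2 higher without GSK219 replicate 2. The cholesterol median was -0.14 [-0.35 to 0.08] and passed zero without WT replicate 1. Urea cycle and amino acid genes gave 1 of 36 higher (0, 14, 0, 1 and 1 with 1 liver left out), Otc, the ornithine transcarbamylase (log2 fold change 0.38 ± 0.13, edgeR adjusted p = 0.539). The periportal list gave 3 of 16 higher and 1 lower (4, 5, 2, 3 and 3 higher with 1 liver left out). Of these, Hsd17b13, a lipid droplet enzyme, had 123 and 156 CPM in WT and 232, 211 and 191 CPM in GSK219 livers (log2 fold change 0.603 ± 0.14, edgeR adjusted p = 0.417). Pigr, the receptor that carries IgA into bile, had 1409 and 1197 CPM in WT and 1756, 1908 and 1929.6 CPM in GSK219 livers (log2 fold change 0.52 ± 0.17, edgeR adjusted p = 0.539). The pericentral list gave 1 of 19 higher, Cyp2c29.

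Several lists served to show how the livers compared in state and quality. Cell cycle genes gave a share near that of all genes, 4 of 42 lower and 0 higher at p under 0.05, with a median of -0.63 [-0.88 to -0.26] and 0, 9, 2, 3 and 4 with 1 liver left out. Of the 42 cell cycle genes, 36 had a log2 fold change below zero, and 15 had every treated liver below both WT livers. The mitotic kinase Plk1 had 1.49 and 1.22 CPM in WT and 0.503, 0.664 and 0.657 CPM in GSK219 livers (log2 fold change -1.14 ± 0.42, edgeR adjusted p = 0.566), Cdk1 differed by -0.95 ± 0.39, and the kinetochore motor Cenpe by -1.29 ± 0.45. Glucocorticoid and immediate early genes gave 5 of 21 lower and 2 higher. With 1 liver left out 2, 4, 4, 2 and 7 were lower and 0, 2, 2, 1 and 0 higher. Tsc22d3, or GILZ, which glucocorticoid induces, had 53.5 and 65.5 CPM in WT and 83.9, 102 and 171 CPM in GSK219 livers (log2 fold change 1.000 ± 0.35, edgeR adjusted p = 0.539). Per1, a clock gene with a glucocorticoid response element, had 25.4 and 33.3 CPM in WT and 35.6, 48.1 and 47.8 CPM in GSK219 livers (log2 fold change 0.58 ± 0.204, edgeR adjusted p = 0.539). Btg2, an antiproliferative immediate early gene, had 36.2 and 32.5 CPM in WT and 11.1, 19.9 and 18.1 CPM in GSK219 livers (log2 fold change -1.07 ± 0.25, edgeR adjusted p = 0.418). Major urinary protein and growth hormone genes gave 1 of 33 higher (0, 1, 1, 0 and 1 with 1 liver left out), Igfbp2 (0.84 ± 0.299), which binds insulin-like growth factors. Sex-biased hepatocyte genes gave 0 of 27 in either direction, with both groups mixing the sexes. With the term for Xist or Y-linked reads 11 of them were higher and 1 lower, and the list median ran from -1.17 to 3.28 with 1 liver left out. Ribosomal protein genes gave 1 lower and 1 higher of 80, and endoplasmic reticulum stress, proteasome and mitochondrially encoded genes gave 0 of 30, 0 of 38 and 0 of 13. Circadian genes gave 1 of 18 higher, Per1 (0, 2, 2, 0 and 1 with 1 liver left out).

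By fold change alone, 15 protein-coding genes in each direction were taken among those with p under 0.05, groups that did not overlap and a mean of 1 CPM or more, a set of 776 genes lower and 303 higher. The genes lower were Mpo, Dmbt1, Saa2, Ltf, Ngp, Ccr1, S100a8, Cfd, Saa1, Cd177, S100a9, Chil1, Chil3, Tubb3 and Cxcr2. Of these, 8 are on the neutrophil lists, a count given as a description, since Mpo, Cd177, Cxcr2, Ccr1, Cfd and Chil3 passed the filter on low counts only through the WT livers. Dmbt1, a mucin-like scavenger protein of epithelia and ducts, had 158 and 28 reads in WT and 0, 2 and 7 reads in GSK219 livers (ratio of summed, depth-scaled reads 30.5, 95% interval 15.7 to 67.7; edgeR adjusted p = 0.465), and most of its WT reads came from replicate 1. Tubb3, a beta tubulin of neurons and some tumor cells, had 48 and 23 reads in WT and 2, 4 and 9 reads in GSK219 livers (ratio of summed, depth-scaled reads 6.98, 95% interval 3.96 to 13.1; edgeR adjusted p = 0.465). Clic3, a chloride channel-like protein, had 19 and 15 reads in WT and 51, 32 and 303 reads in GSK219 livers (log2 fold change 2.91 ± 1.13, edgeR adjusted p = 0.571). Ptgds, which makes prostaglandin D2, had 33 and 31 reads in WT and 62, 51 and 293 reads in GSK219 livers (log2 fold change 2.08 ± 0.89, edgeR adjusted p = 0.603). In both genes GSK219 replicate 3 held most of the reads of the treated livers. Syt3, a synaptotagmin that senses calcium at membranes, had 28 and 37 reads in WT and 117, 58 and 108 reads in GSK219 livers (log2 fold change 1.57 ± 0.35, edgeR adjusted p = 0.409). Bdh2, a cytosolic hydroxybutyrate dehydrogenase, had 72 and 96 reads in WT and 301, 219 and 144 reads in GSK219 livers (log2 fold change 1.43 ± 0.35, edgeR adjusted p = 0.429). The remaining genes of the set were Cyp4a10, Acot1, Retsat, Cyp46a1, Gsta2, Adamts7 and Acaa1b above, the zinc finger genes Gm14327 and Zfp872, the vomeronasal receptor gene Vmn1r90 and the Y-chromosomal gene model Gm47283, with log2 fold changes of 1.27 ± 0.51, 1.21 ± 0.44, 1.304 ± 0.56 and 1.49 ± 0.61.

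Among the channels, Trpv4 had 43 and 53 reads in WT and 20, 30 and 36 reads in GSK219 livers (log2 fold change -0.72 ± 0.48, edgeR adjusted p = 0.772), which did not pass the test. Piezo1, the stretch-gated channel that acts upstream of TRPV4 in pancreatic cells, had 23.6 and 19.2 CPM in WT and 10.01, 14.3 and 16.4 CPM in GSK219 livers (log2 fold change -0.66 ± 0.26, edgeR adjusted p = 0.571). Trpv2, a relative found in macrophages, had 7.42 and 6.47 CPM in WT and 1.89, 3.26 and 3.35 CPM in GSK219 livers (log2 fold change -1.29 ± 0.45, edgeR adjusted p = 0.539). Trpm2, an oxidant-sensitive channel of phagocytes, had 33.03 and 23.7 CPM in WT and 8.37, 16.2 and 20.9 CPM in GSK219 livers (log2 fold change -0.901 ± 0.37, edgeR adjusted p = 0.583). These 3 were the members lower at p under 0.05 of 11 tested (0, 3, 0, 2 and 3 with 1 liver left out), all of them alongside the lower macrophage markers above, whose part in these values was not tested.

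Set beside the TRPV4-KO livers, few genes of the GSK219 livers passed the adjusted threshold. edgeR called 15 of 15118 genes between these groups, 8 lower and 7 higher in the GSK219 livers, of which 7 were protein-coding and 4 of those lay on chromosome 5, where Trpv4 itself is located. Of the 279 genes named by rule that were tested, none was called by edgeR. In the same comparison 526 genes were lower and 399 higher at p under 0.05, and DESeq2 called 92 genes. Saa1 had 632, 468 and 554 CPM in the TRPV4-KO livers (GSK219 minus TRPV4-KO -0.42 ± 0.44). Saa2 had 203, 184 and 289.7 CPM (-0.37 ± 0.47). S100a8 had 7, 15 and 35 reads in the TRPV4-KO livers (-0.13 ± 0.47) and Fabp5 had 18.1, 26.04 and 14.6 CPM (-0.09 ± 0.22). Among the genes higher, Retsat had 228, 269.6 and 138 CPM (-0.07 ± 0.26), Acaa1b had 888, 1137 and 619 CPM (-0.37 ± 0.21) and Cyp4a10 had 119.6, 58.8 and 72.7 CPM (0.86 ± 0.71). Timd4 had 12.01, 8.03 and 16.9 CPM (0.13 ± 0.35) and Col3a1 had 40.97, 18.8 and 40.01 CPM (-0.23 ± 0.41). A value that missed the threshold here does not show that the antagonist and the knockout gave the same level.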

How the data were processed

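Per the labels, RNA was taken with a Ribopure kit and liver libraries were made at Novogene, and reads were trimmed with Trim Galore and aligned with HISAT2 2.0.5; the counting tool is not given in the sources used here. The authors deposited raw read counts per gene for the 8 livers, with GRCm38 coordinates; a count depends on gene length and on how reads shared by near copies were assigned. The 7 other columns of counts in the deposited liver table, which no label names, and the stellate cell table were not used.

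Genes passing filterByExpr with a minimum count of 10 (15118 of 54532) were scaled by TMM and tested with edgeR 4.0.16 (quasi-likelihood, robust, R 4.3.3) on all 8 livers, which share one estimate of the spread (biological coefficient of variation 28.3%), with no covariate. Calls needed a Benjamini-Hochberg adjusted p under 0.05 together with a difference past 1 on the log2 scale. CPM are counts scaled to library size after TMM. The fit was tested before use on simulated data, where edgeR recovered 12% of 2-fold and 94% of 4-fold changes. The simulation gave all genes 1 common spread and held no differences between sexes, so these shares need not hold for the livers. Alternatives were other scaling, no filter, DESeq2 1.42.0, the 5 livers alone, protein-coding genes alone, a replicate block, a term for Xist or Y-linked reads, and leaving out each liver. Intervals are exact (Clopper-Pearson, 95%).

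Genes were named by rule: those the study names for the livers, the 15 largest log2 fold changes in each direction (p under 0.05, no overlap, mean of at least 1 CPM), the 5 smallest p in each direction, and up to 5 tested members with the smallest p from each of 59 lists. Some genes that the rule names are not reported here. The members and lists were chosen with earlier results of these data known. Replicates of one group differed by more than sampling noise, so each was counted as 1 sample. Promoter sequences are RefSeq's, in GRCm38.p6.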

Additional observations from a re-analysis of the deposited data

How the results depend on the processing

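The absence of edgeR calls held under RLE scaling, with protein-coding genes alone, with no fold threshold, and without WT replicate 1, WT replicate 2, GSK219 replicate 1 or GSK219 replicate 3; over the settings with 1 liver left out the calls ranged from 0 to 2 lower and from 0 to 0 higher, the 2 being Saa1 and Saa2 without GSK219 replicate 2. Other settings called genes: no filter on low counts gave 7 lower and 1 higher, edgeR on the 5 livers alone 2 and 0 (Fabp5 and S100a8), the term for Xist or Y-linked reads 2 and 2, DESeq2 on all 8 livers 62 and 10, and DESeq2 on the 5 livers 136 and 11. The DESeq2 fits shared 70 genes of 147 and 72 called. Protein-coding genes at p under 0.05 ranged from 238 to 933 lower and from 181 to 330 higher with 1 liver left out, the lowest without WT replicate 1, where the lone WT liver is assumed to vary like the other groups. The term for Xist or Y-linked reads gave 506 higher. Between the GSK219 and TRPV4-KO livers, edgeR called 15 genes and DESeq2 92. The causes were not tested.

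Whether the replicate numbers pair the livers could not be decided. The deviations of same-numbered WT and GSK219 livers correlated at -0.48 for number 1 and 0.30 for number 2, across genes. With 2 WT livers these deviations are mirror images, so a GSK219 liver that matches 1 WT liver always opposes the other. With the replicate block edgeR called 9 genes lower and 0 higher. These were Fabp5, Mpo, S100a8, S100a9, Cyp3a41b and, from the list of sex-biased genes, Cyp2b13, Cyp3a41a, Sult2a1 and Sult2a2. The livers numbered 1 differ in Xist and Y-linked reads. In the fit with the block, 1413 protein-coding genes were lower and 433 higher at p under 0.05. Of the genes named, Saa3 reversed without WT replicate 1, to a log2 fold change of 0.24; without WT replicate 2 it was -0.92. Of the counts over the lists, 1245 stayed within 1.5-fold, those that were 0 in both settings included, and 289 moved further. A list median was counted as staying if it moved by less than 1 standard deviation of its members' log2 fold changes. By that rule 731 stayed and 36 moved, and a median that passed zero could count as staying. Genes with few reads, Mpo, Elane and Camp among them, have wide intervals.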
